A study of Caenorhabditis elegans with 4 samples.

Results

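Chromosome III of Caenorhabditis elegans carried 550 of the 3467 binding sites (15.9%) listed for the transcription factor JUN-1. These 550 are all peaks of the authors' combined peak list that lie on chromosome III, chosen by chromosome name alone. They were measured by ChIP-seq in L3 larvae, hermaphrodites of strain OP234 kept at 20 °C. This strain carries the mutation unc119(ed3) and the bombarded transgene wgIs234, which holds jun-1 (T24H10.7) joined to TY1, EGFP and FLAG tags together with a functional unc119 copy. The submitters describe the fusion as expressed where jun-1 is, and no mutation of jun-1 itself is listed. All samples share these alleles, and worms without the transgene were not analysed here. An anti-GFP goat antibody was used for the 2 ChIP samples, and the 2 input samples held total chromatin, by their titles and source names. The free-text descriptions conflict with this, since they name the antibody for the input samples and input DNA for the ChIP samples. Whether the replicates came from separate cultures is not stated. Whole worms were used, so a peak can come from any cell type that expresses the fusion.

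JUN-1 belongs to the Jun family of basic leucine zipper proteins. In animals these factors bind DNA as dimers, often with a Fos partner as the AP-1 complex, and AP-1 is known for turning kinase signals, such as those of the JNK pathway, into changes in transcription. C. elegans autosomes are not uniform. Their central regions are rich in conserved and widely expressed genes, while their arms hold more repeats and recombine more often. The 3 parts of equal length used here, called the left, middle and right part, only approximate that division.

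The values are peak lists with a q-value for each peak, on WormBase build WS180. Strength is given as −log10 q, which depends on sequencing depth as well as on binding and is used here for order within a list. Depth is unknown, since the lists hold no read counts. On III the combined list and the ChIP replicate 2 list were the same list, with all 550 peaks equal in start, end and q-value. The combined values on III are thus also those of replicate 2, and the only other measurement of these sites is the replicate 1 list, with 165 peaks on III. On I, II, IV and V together the combined list held 2346 peaks and the replicate 2 list 2347, with 547 overlapped by replicate 1 in each. Comparisons of III with other autosomes in the combined list are therefore in effect comparisons within replicate 2. The input samples have no values here. Sites are named by position, and genes and sequence under the peaks were not analysed here.

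Most of the 550 sites were narrow and weak, with a small strong minority. Their median width was 416.5 bp (quartiles 327 and 632 bp, range 7 to 3849 bp), and together they covered 311 kb, or 2.26% of the span of III. The span runs from base 1 to the last peak end, 13.8 Mb. Median −log10 q was 6.50 (quartiles 4.56 and 11.0), and the strongest 55 sites held 32.5% of the summed −log10 q. Wider sites tended to be stronger (Spearman's rho 0.54 across the 550 peaks, a description, since a wider region also gathers more reads). At the narrow end, 26 sites were under 200 bp, none of them overlapped a replicate 1 peak, and their −log10 q did not exceed 6.24.

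**Figure D1:**
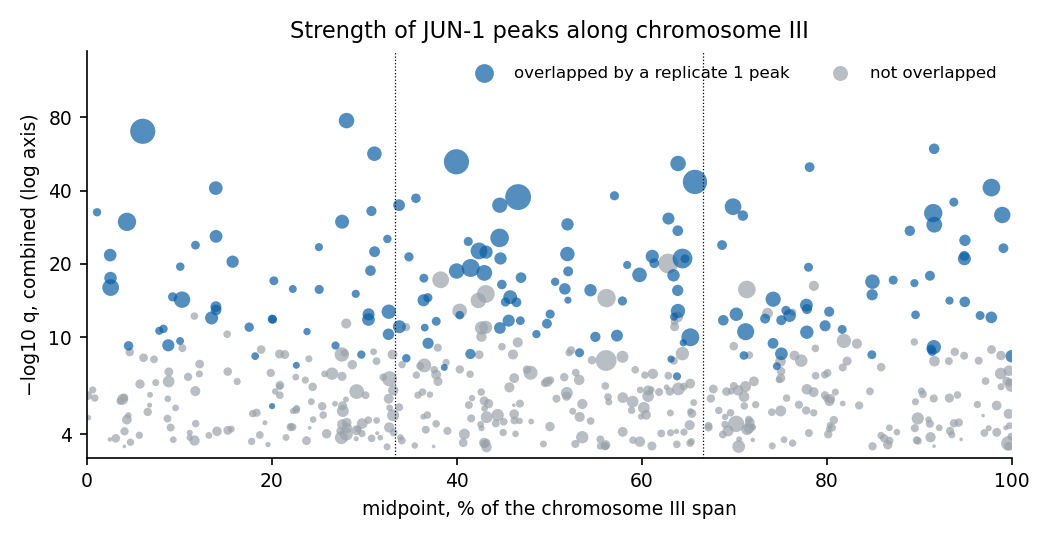
Each circle is 1 of the 550 combined peaks on III, placed by its midpoint (percent of the span, dotted lines between the 3 equal parts) and its −log10 q (log axis). Circle area grows with peak width above a minimum size. The strong sites, with −log10 q of up to 77.5, lie in all 3 parts, and most grey circles (389 peaks not overlapped by replicate 1) lie low.

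The strongest site on III lay at 3866390 to 3867775, in the left part, and was 1386 bp wide. Its −log10 q was 77.5 in the combined list and 44.6 in replicate 1, where the called region ran from 3866519 to 3867748. It ranked first on III in both lists, but only 30 among all 3467 combined peaks and 13 among all 918 replicate 1 peaks. Thus none of the 29 strongest sites of the genome-wide list was on III. Of the 100 strongest, 14 (14%) were, near the 15.9% of all combined peaks that lay on III.

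The order of the 4 leading sites was the same in both lists. The second site, at 832693 to 836342, was a broad one of 3650 bp with a −log10 q of 70.1 in the combined list and 29.2 in replicate 1, and the replicate 1 region covered nearly the same stretch, from 832697 to 836284. The third, at 12612226 to 12612872, was compact, with 647 bp and a −log10 q of 59.4 in the combined list and 28.8 in replicate 1. The next, at 4281579 to 4282802, had 56.7 in the combined list and 27.8 in replicate 1. Strong sites on III were thus both wide and compact.

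Replicate 1 gave the fifth site a lower place. This site, at 5501458 to 5505108, had a combined −log10 q of 52.5, whereas its stronger replicate 1 part had 17.1 and ranked 11 on III. The sixth, at 8801262 to 8802646, had 51.7 in the combined list and 26.1 in replicate 1. The seventh, at 10758899 to 10759452, had 49.9 in the combined list and 24.1 in replicate 1. The other 8 of the 15 strongest sites began at 9050920, 13463870, 1920767, 7854399, 6419392, 4899619, 12904833 and 4649022, with combined −log10 q between 43.4 and 34.9.

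All 15 strongest sites overlapped a replicate 1 peak, and 12 of them had a partner among the 15 strongest replicate 1 peaks of III. They were spread along the chromosome, with 4 in the left part, 7 in the middle and 4 in the right, and 12 of the 14 stretches of 1 Mb held at least 1. Their widths ranged from 465 to 3849 bp with a median of 1224 bp, and 9 of the 15 were 800 bp or wider.

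The 4 widest sites were all among the 15 strongest, and 3 of them were split in replicate 1. The widest, at 6419392 to 6423240 (3849 bp), ranked 12 on III in the combined list with a −log10 q of 37.6. In replicate 1 it appeared as 2 peaks, from 6420954 to 6421607 and from 6422008 to 6422961, with −log10 q of 5.16 and 5.46, and the better of them ranked only 92 of 165. Its first 1562 bp had no replicate 1 peak. The site at 9050920 to 9054322 (3403 bp, combined −log10 q 43.4) was overlapped in replicate 1 by 2 peaks of 503 and 587 bp. They lay 1998 bp apart and had −log10 q of 7.44 and 10.1. The site at 5501458 was likewise overlapped by 2 peaks 380 bp apart, with −log10 q of 17.1 and 4.19. Replicate 1 also split a narrower site, at 5837971 to 5839599, into 2 peaks 280 bp apart. The fifth widest site, at 7729182 to 7731681 (2500 bp), differed from the other 4, since its combined −log10 q was 8.03 and replicate 1 had no peak there.

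Replicate 1 supported 161 of the 550 sites (29.3%, 95% Wilson interval 25.6 to 33.2%), where 25.7% of all combined peaks were supported. Support means an overlap of at least 1 bp, and the intervals cover counting error only. All 165 replicate 1 peaks on III overlapped a combined peak, 144 of them wholly inside it, and 147 (89.1%) did so with a reciprocal overlap of at least 50%. In the 165 pairs, midpoints lay a median of 24.5 bp apart (quartiles 11.5 and 63.5 bp). The combined peak was wider in 155 pairs, by a median factor of 1.22, and had the larger −log10 q in all 165, by a median factor of 2.42 (quartiles 2.04 and 2.81). The order of strength was similar in both lists (Spearman's rho 0.80 over the 165 pairs, a description across sites).

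Supported sites were the stronger and wider ones. Median −log10 q was 14.6 in the 161 supported sites and 5.29 in the 389 unsupported ones, and median width 634 bp in supported and 368 bp in unsupported sites. Of the supported sites 61 (37.9%) were 800 bp or wider, and of the unsupported 36 (9.25%). When all combined peaks were cut into 10 equal groups by q-value, 160 of the 274 sites of III in the stronger 5 groups were supported, and 1 of the 276 in the weaker 5. The ranges still overlapped, because the weakest supported site had a −log10 q of 5.22 and the strongest unsupported one 20.1.

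That strongest unsupported site, at 8652103 to 8654359, was 2257 bp wide and ranked 53 on III, and it was the sole site among the 61 of III in the strongest group without a replicate 1 peak. The next 4 unsupported sites began at 5267180, 10822381, 9824515 and 5939428, with −log10 q of 17.2, 16.3, 15.7 and 15.1. Of these 5 sites 4 were broad, from 1624 to 2257 bp, and the one at 10822381 had 594 bp. Depth being unknown, absence from the replicate 1 list means only that no peak was called there.

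Along III the sites were fairly evenly spread. The 13 full stretches of 1 Mb held between 27 and 55 combined peaks, with a median of 39, and between 5 and 18 replicate 1 peaks, with a median of 13. The fullest were the stretches from 5 to 6 Mb and from 8 to 9 Mb, with 55 peaks each, and from 4 to 5 Mb, with 50. The emptiest were from 2 to 3 Mb with 27, from 0 to 1 Mb with 28 and from 11 to 12 Mb with 29. The last, partial stretch held 34 peaks at 44.3 per Mb, so the right end of III was not sparse.

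Full stretches were not uniformly the better supported ones. Stretches from 3 to 4 Mb and from 9 to 10 Mb held 42 peaks each, of which 8 (19.0%) were supported, whereas from 6 to 7 Mb 16 of 40 (40%) were. In the sparse stretch from 11 to 12 Mb, 5 of 29 sites (17.2%) were supported, and its strongest site had a −log10 q of 16.9. The sparse first stretch, in contrast, held the second strongest site of III. Over the 13 full stretches, combined and replicate 1 counts rose together (Spearman's rho 0.74, a description, since the stretches share a chromosome and the lists share sites).

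**Figure D2:**
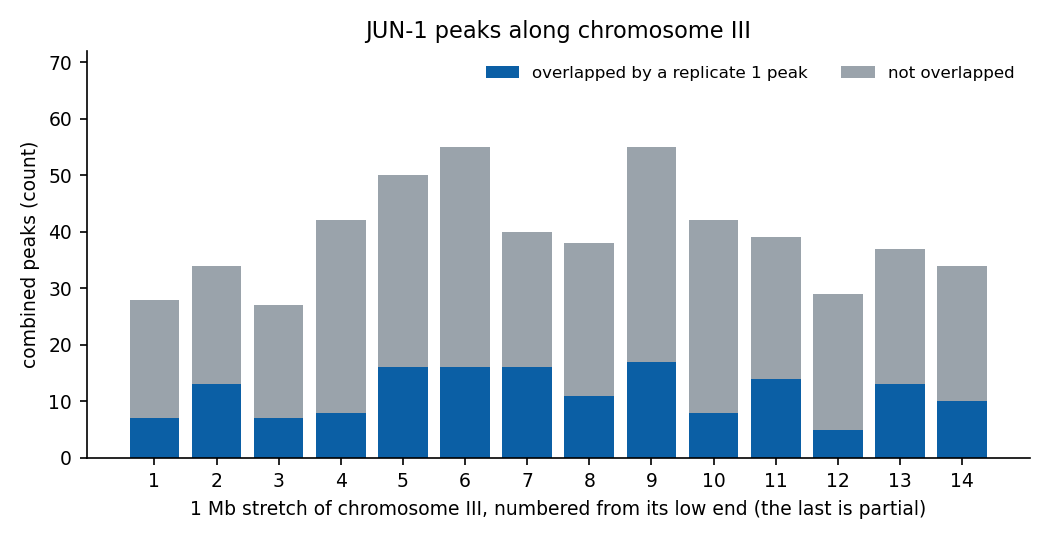
Bars give the number of combined peaks in each 1 Mb stretch of III, the blue part being those overlapped by a replicate 1 peak. Counts run from 27 to 55 in the 13 full stretches, and the 2 fullest, the 6th and the 9th, hold 55 each.

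The coefficient of variation of the counts per full stretch was 23.5% on III, against 33.6% on I, 39.9% on II, 33.2% on IV and 47.5% on V. The fullest stretch of III held 2.04 times the peaks of its emptiest, against 2.85 times on I and between 4.83 and 5.17 times on II, IV and V. The longest gap without a peak was also shorter on III, 201 kb, between 9054322 and 9254869, against 306 kb on I, 587 kb on II, 317 kb on IV and 419 kb on V. The next longest gaps of III lay between 12058634 and 12250109 and between 154604 and 344141. Evenness was not particular to III, because X had a coefficient of variation of 27.2%, a ratio of 2.94 and a longest gap of 244 kb. In the replicate 1 list full stretches held 5 to 18 peaks on III. There they held 2 to 17 on I, 1 to 11 on II, 4 to 20 on IV, 0 to 16 on V and 6 to 16 on X. These measures of evenness are descriptions and were not tested.

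The left part of III held 166 sites (36.2 per Mb), the middle 206 (44.9 per Mb) and the right 178 (38.8 per Mb). The other autosomes together had 27.9, 46.1 and 28.6 per Mb in the same parts, so the arms of III were fuller than this pooled value. The pooled value does not describe every autosome. On I the left, middle and right parts had 38.7, 60.8 and 39.1 per Mb, each denser than on III, and the left part of IV had 36.4 per Mb. The middle part held 37.5% of the sites of III, where the background over all autosomes was 43.5%, and 44.9% of the sites of I, II, IV and V (odds ratio 0.73, 95% interval 0.61 to 0.89, two-sided Fisher's exact test, p = 0.0016, adjusted p = 0.00479). Adjustment was by Benjamini-Hochberg over the 6 comparisons of III with the other autosomes together. In the combined list X had a smaller middle share than III, 36.1%. Each of the 4 other autosomes had a larger one there, 43.8% on I, 46.8% on II, 42.4% on IV and 47.5% on V. Compared with each on its own, over 24 such comparisons chosen after the values were seen, III differed from V (Fisher's exact test, adjusted p = 0.00417) and II (adjusted p = 0.0175) but not past the threshold from I (adjusted p = 0.0708) or IV (adjusted p = 0.189). Fisher's test counts neighbouring peaks as independent, which they may not be.

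**Figure D3:**
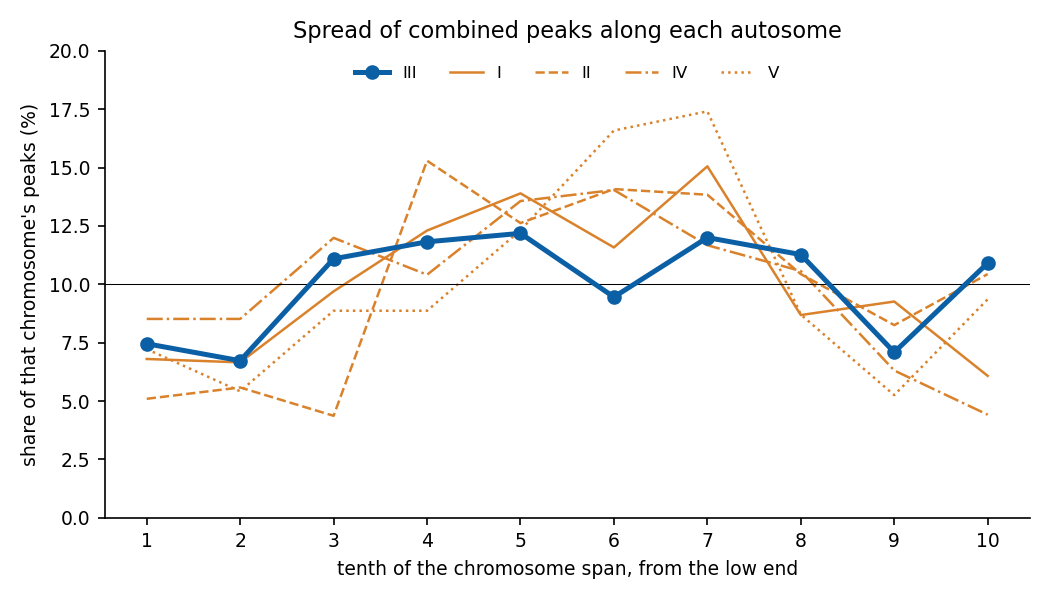
Lines give the share of a chromosome's combined peaks in each of 10 equal parts of its span, for III (blue) and the other 4 autosomes (orange), with the black line at an even 10%. III stays between 6.73% and 12.2% in every part, while V reaches 17.4%.

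The lower middle share of III was not called in every list. In the replicate 1 list the middle part held 42.4% of the peaks of III and 44.9% of those of the other autosomes (odds ratio 0.91, Fisher's exact test, adjusted p = 0.594), and IV had a smaller middle share than III, 37.0%. In the stronger 50% of the combined list the shares were 41.4% and 44.9% (odds ratio 0.87, Fisher's exact test, adjusted p = 0.413), and in the weaker 50% 33.6% and 44.9% (odds ratio 0.62, Fisher's exact test, adjusted p = 0.00347, a setting added after the values were seen). The difference between the weaker and the stronger 50% was not itself tested. Of the 277 sites of III in the weaker 50%, 1 was supported by replicate 1. Among supported sites the middle share was 41.0% on III and 44.6% on the other autosomes. Among unsupported sites it was 36.0% on III and 45.0% on the others, both without a test.

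Within III, support did not differ detectably between the parts. Replicate 1 supported 66 of 206 sites (32.0%, Wilson interval 26.0 to 38.7%) in the middle part and 95 of 344 (27.6%) in both arms together (odds ratio 1.24, Fisher's exact test, adjusted over 2 comparisons p = 0.575). It supported 46 of 166 (27.7%) in the left and 49 of 178 (27.5%) in the right part (odds ratio 1.01, Fisher's exact test, adjusted p = 1). The middle held wider sites, with a median of 457.5 bp against 398 bp in the left and 424.5 bp in the right part. Of its sites 48 (23.3%) were 800 bp or wider, against 25 (15.1%) in the left and 24 (13.5%) in the right part, a description without a test. Median −log10 q was 7.01 in the middle, 6.07 in the left and 6.12 in the right part.

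Peak density on III was 39.9 per Mb, against 34.2 per Mb on I, II, IV and V together (ratio 1.17, 95% interval 1.06 to 1.28, two-sided exact binomial test, adjusted p = 0.00479). In the combined list III was the second densest of the 5 autosomes, below I (46.2 per Mb) and above IV (36.3), V (29.1) and II (27.0 per Mb). Against single autosomes in that list, its density was lower than that of I (exact binomial test, adjusted p = 0.0392) and higher than that of V and II (adjusted p = 8.15e-07 and 2.05e-08), and the difference from IV, its neighbour in this order, did not pass (ratio 1.10, interval 0.98 to 1.24, adjusted p = 0.189). In the replicate 1 list III had 12.0 peaks per Mb and the other autosomes 8.22 (ratio 1.46, exact binomial test, adjusted p = 0.000219). The order changed there: III was the densest autosome, followed by IV with 10.8 per Mb, V with 7.89, I with 7.16 and II with 6.75. The direction against I thus turned between the lists, and the comparison with I in replicate 1 was not tested. Merging sites within 1000 bp of each other left 483 loci on III and a ratio of 1.16 (exact binomial test, adjusted p = 0.00824). The test takes sites as independent and the other autosomes as 1 common rate, so its interval does not cover the spread between chromosomes. Uneven gene content was not allowed for.

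Support on III was higher than on the other autosomes together, 29.3% against 23.3% (odds ratio 1.36, 95% interval 1.11 to 1.67, Fisher's exact test, adjusted p = 0.00824). Every replicate 1 peak on the 5 autosomes overlapped a combined peak. The share supported therefore largely restates the densities of the 2 lists and is not a separate trait. Without strength groups this difference rested on chromosome I, where 14.9% of the sites were supported. Without I, the share on II, IV and V was 26.8% (odds ratio 1.13, Fisher's exact test, adjusted p = 0.405). Against single autosomes only the comparison with I passed (odds ratio 2.36, Fisher's exact test, adjusted p = 2.05e-08), and IV, with 28.9%, lay closest to III (odds ratio 1.02, interval 0.79 to 1.31). Within the 10 groups of strength, the pooled Mantel-Haenszel odds ratio of III was 1.93 against I, II, IV and V (interval 1.36 to 2.74) and 1.01 against II, IV and V (0.69 to 1.46). The second value averages unlike ones. Against II alone the ratio was 1.95 (interval 1.17 to 3.27), whereas it was 0.82 against IV (0.52 to 1.28) and 0.84 against V (0.54 to 1.30). Within these groups, support on III was therefore higher than on II. It was also higher than on I, where the ratio was 12.3 (6.94 to 21.9). These intervals were chosen after the values were seen and not adjusted for the number of autosomes. The groups match the combined q-value only, and coarsely, since group 1 runs from a −log10 q of 18.3 to 234.

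Support fell as strength fell. In group 1, 60 of 61 sites of III were supported (98.4%), against 96.4% on the other autosomes. In group 2 the share was 82.8% on III and 72.2% on the others, in group 3 71.1% on III and 38.0% on the others, and in group 4 29.1% on III and 20.4% on the others. On II, IV and V alone it was 99.3% in group 1, 85.8% in group 2, 55.2% in group 3 and 29.5% in group 4. Of these groups, III lay above II, IV and V only in group 3. From group 6 on, at −log10 q of 6.51 and below, 1 site of III was supported. Where a pair existed, the combined −log10 q was a median of 2.42 times that of replicate 1 on III, against 3.61 times on I, 2.49 on II, 2.36 on IV and 2.27 on V.

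**Figure D4:**
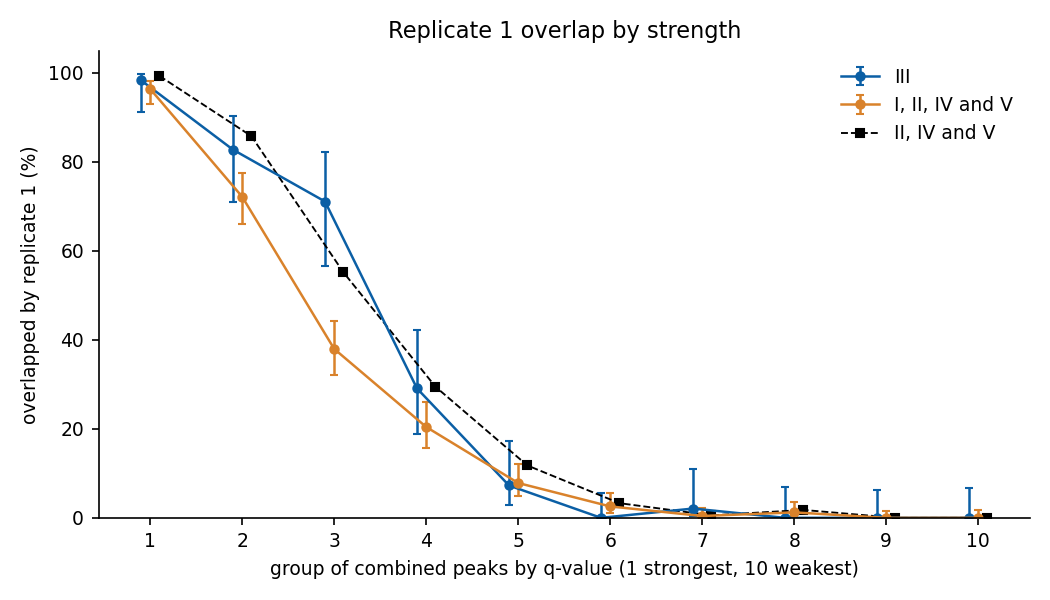
Points give the share of combined peaks overlapped by replicate 1 in 10 equal groups by q-value, with 95% Wilson intervals for III (blue) and for I, II, IV and V (orange). III lies above the orange points in the first 4 groups, at 71.1% against 38.0% in group 3, and nearer to the black squares of II, IV and V.

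Broad sites of 800 bp or more numbered 97 on III (17.6%), where the background over all combined peaks was 16.2%, against 14.7% on the other autosomes (odds ratio 1.24, interval 0.97 to 1.59, Fisher's exact test, adjusted p = 0.131). The difference did not pass the threshold. Against I alone, with 12.0%, it did (odds ratio 1.57, Fisher's exact test, adjusted p = 0.0231). The site next to the limit on its narrow side had 794 bp, and the narrowest broad site had exactly 800 bp. Broad sites of III had a median −log10 q of 13.6 and 61 of the 97 (62.9%) were supported, against 100 of the 453 narrower sites (22.1%). The maximum width on III, 3849 bp, was below that of I (6070 bp), II (25340 bp), IV (5184 bp) and V (9336 bp). On X it was 4007 bp. Each maximum is a single site, so this does not show that wide sites were rarer on III. At the largest width limit tried, broad sites made up 4.36% on III and 3.71% on the other autosomes. That difference did not pass the threshold either.

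Clustering did not differ past the threshold from that on the other autosomes. Another peak lay within 1000 bp of 124 sites of III (22.5%; background 20.8% of all combined peaks), against 21.1% on the other autosomes (odds ratio 1.09, interval 0.87 to 1.36, Fisher's exact test, adjusted p = 0.453). The widest gap inside this limit was 987 bp and the narrowest outside it 1013 bp. Chained in this way, III had 47 pairs and 10 groups of 3 and no larger group, whereas each of the other autosomes had at least 1 group of more than 3. The median gap between neighbouring sites was 12.1 kb on III, against 8.84 kb on I, 20.6 kb on II, 13.0 kb on IV and 14.7 kb on V.

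The middle part held 7 of the 10 groups of 3, and 25 of all 57 pairs and groups, beside 37.5% of the sites. Between 5 and 6 Mb, one of the 2 fullest stretches, lay 5 of the groups of 3. These few groups were not tested for concentration. The longest of the pairs and groups was a pair of 5.23 kb, from 5501458 to 5506688, with both peaks supported. The longest group of 3 spanned 4.21 kb, from 8982024 to 8986235, with a strongest −log10 q of 10.0 and 1 supported peak of the 3. The next, from 5914684 to 5918580, had a strongest −log10 q of 18.4 and also 1 supported peak. The group from 13462794 to 13466496, near the right end, held the ninth strongest site of III (−log10 q 41.2) and 2 supported peaks. Of the 57 pairs and groups, 30 held at least 1 supported site. Clustered sites were supported in 44 of 124 cases (35.5%), against 117 of 426 other sites (27.5%). Median width was 585 bp in clustered and 397.5 bp in other sites. Clustered sites were also stronger, with a median −log10 q of 7.76 against 6.18, and their support was not compared at equal strength. Neighbouring peaks can be parts of 1 bound region that was called in pieces, and the lists do not tell these cases apart.

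The share of strong sites did not differ past the threshold either. Of the strongest 10% of autosomal peaks (290 of 2896, a background of 10.0%), 61 were on III. They made up 11.1% of its sites, against 9.76% on the other autosomes (odds ratio 1.15, interval 0.86 to 1.56, Fisher's exact test, adjusted p = 0.413). The last sites inside the limit had −log10 q of 18.6 and 18.4, and the first outside it 18.0. Their median width was 872 bp on III and 891 bp for the 229 on the other autosomes, and their median −log10 q 25.6 on III and 25.3 on the others. The highest −log10 q was 77.5 on III, against 190 on I, 110 on II, 76.0 on IV and 227 on V, so III and IV lacked the very strong sites of the other 3.

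**Figure D5:**
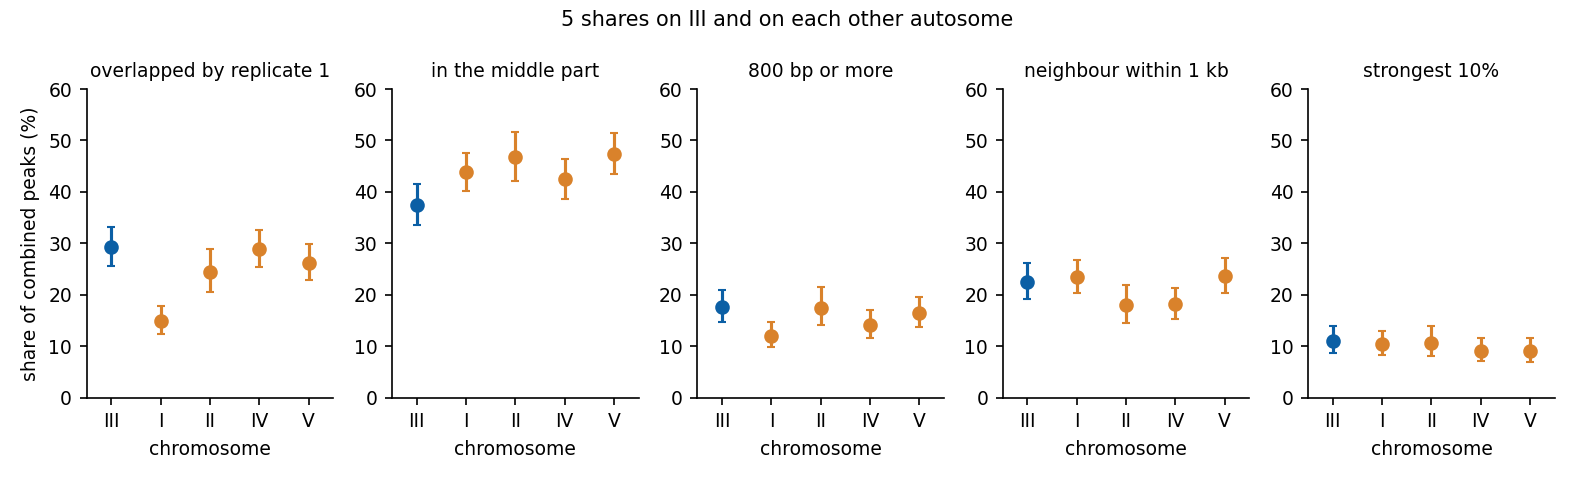
Points give 5 shares of the combined peaks on III (blue, left) and on each other autosome (orange), with 95% Wilson intervals. III has the smallest middle share of these autosomes, 37.5%, and lies within the range of the other 4 in the share of clustered peaks. Its support of 29.3% is close to the 28.9% of IV.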

How the data were processed

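ChIP-seq peak lists of 2 ChIP samples and a combined list of the whole series were analysed, and the 2 input samples had no values here. Groups came from the sample titles. Peaks were called with PeakSeq on WormBase WS180, per the file headers and source column, and the authors deposited a q-value for each peak. For the PeakSeq version, the aligner, the threshold, the use of the input, the depth and the making of the combined list, the entry is "not given in the sources used here".

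From these lists, −log10 q, widths, midpoints, gaps between peak edges and overlaps of at least 1 bp were computed, with positions 1-based. The end of a chromosome was set at its highest peak end over all lists, as the headers hold no lengths, and the span was cut into 3 parts of equal length. No peaks were filtered out. Shares were compared by two-sided Fisher's exact test and densities by an exact binomial test on the spans, with Benjamini-Hochberg adjustment. Strength groups were combined by the Mantel-Haenszel method. The named sites follow a rule: the 15 strongest, the 5 widest, the 5 strongest unsupported, the 3 largest groups, the 3 fullest and emptiest stretches, the 3 longest gaps and the sites beside the limit of the strongest 10%. The other sites printed, such as the narrowest split site, were named after their values were seen. The sites and comparisons were chosen with earlier results of these data known. The overlap and merging steps were tested on simulated data. Tests ran in SciPy 1.17.1 and statsmodels 0.14.6 under Python 3.11.15, with tables in pandas 2.3.3 and NumPy 2.4.6 and plots in matplotlib 3.10.9.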

Additional observations from a re-analysis of the deposited data

How the results depend on the processing

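Over 48 alternatives, the higher density of III kept its direction and stayed past the threshold in all 6 run for it (ratio 1.16 to 1.46, without either replicate 1.17 and 1.46). The higher support of III did so in 7 of 9 (odds ratio 1.33 to 1.93) and did not pass without chromosome I (1.13), nor without I within groups of strength (1.01, added after seeing the data), where II (1.95), IV (0.82) and V (0.84), also added, differed in direction. The lower middle share of III stayed past the threshold in 6 of 8, with the weaker 50% of the peaks (0.62) added after seeing the data. It did not pass in the stronger 50% (0.87), and leaving out 1 replicate gave 0.73 and 0.91, the second, without replicate 2, not past the threshold. These 2 lists hold fewer peaks, and the cause was not tested. The comparisons of broad, clustered and strong sites and the 2 within III passed under no alternative. Among these, leaving out 1 replicate gave odds ratios for clustered sites of 0.78 to 1.09, for broad sites of 1.05 to 1.27 and for strong sites of 1.15 to 1.23. The direction turned for clustered sites in the stronger 50% (0.997), for middle against arms there (0.986), and for left against right part there (0.976) and with a reciprocal overlap of 50% (0.941). Leaving out replicate 1 means using the replicate 2 list, identical to the combined list on III and close to it on the other autosomes, and is no separate test. No paired analysis was possible because no input values were analysed here, although input and ChIP titles carry the same numbers. With depth unknown, a site not in replicate 1 is a site not called there.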
